A study of Rattus norvegicus with 26 samples.

Results

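The miRNAs of rat liver at 24 hours after 1/3 partial hepatectomy (PH) were compared with those of normal liver. Both groups held 3 arrays, each from the liver of a single rat, of 26 arrays in 9 groups in the whole series. A miRNA was taken into this comparison when the scanner software called it detected on every array of 1/3 PH 24 h or on every array of normal liver. These were 129 of the 677 miRNAs on the array, and 116 of them were detected on all 6 arrays. Another 11 were detected on all normal arrays only, and 2 on all arrays of 1/3 PH 24 h only. No miRNA was detected on all arrays of one group and on none of the other.

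The rats were male Sprague-Dawley rats with no treatment given beyond the operation. In 1/3 PH the left lateral lobe was cut away, and the right lobe that stayed in place was harvested. In the normal group the right lobe came from rats that had no PH. A label of these rats' protocol says sham, so whether these rats had an abdominal operation is not settled by the labels. The titles of all 3 operated arrays give 24 hours, whereas their source labels give 24, 25 and 26 hours. The other groups used below are 1/3 PH at 6, 12 and 36 hours and 2/3 PH, a larger resection, at 6, 12, 24 and 36 hours, all in rats of the same strain and sex. The 1/3 PH 6 h group held 2 arrays, since 1 array of 1/3 PH did not pass the authors' quality control, and every other group held 3.

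miRNAs are short RNAs that guide a silencing complex to messenger RNAs, mostly through the seed, the stretch from base 2 to base 8. A hairpin precursor is cut into a 5p and a 3p arm, and either arm can be loaded into the complex. The liver regrows after resection when resting hepatocytes enter the cell cycle. Removal of a smaller share of the liver is known to bring few hepatocytes to DNA replication, which makes 1/3 PH a view of a resected liver with little proliferation.

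The arrays of both groups had similar quality, with 140 to 151 miRNAs detected on the normal arrays and 131 to 144 on the operated arrays. No spot was saturated. miR-122, the miRNA that hepatocytes are known for, gave 51.5 to 55.8% of the summed miRNA signal in normal liver and 52 to 56% at 24 hours after 1/3 PH, so both groups carried the liver's leading marker. Of 20 neural miRNAs on the array 1 was detected on any of the 6 arrays, miR-128 on 3 normal and 1 operated, and miR-124 and miR-9 were not. Of 12 muscle miRNAs 1 was detected, miR-1* on 2 arrays of each group, and miR-1, miR-133a, miR-133b and miR-206 were not. The arrays were scanned on 3 days. Operated arrays 1 and 2 shared the first day with normal array 1, operated array 3 shared the third day and the slide with normal array 2, and normal array 3 was scanned on the second day. The floor of an array, which is its lowest signal well above background, lay between 6.36 and 13.6 signal units, and dimmer values were set to it. Array 2 of 1/3 PH 12 h stood apart in the series with 91 detected miRNAs and a floor of 24.3 units.

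Mature sequences from RefSeq (build GRCr8) were found for 97 of the 129 miRNAs, 28 by the array's name and 69 after the arm had been added to it. The seed is in capitals in each sequence that follows. The first set holds miR-34a, which passed the test, then both arms of the miR-378 hairpin, miR-652 and miR-338, which stood lower, and miR-451, which was high on 1 operated array.
miR-34a: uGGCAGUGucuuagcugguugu
miR-378: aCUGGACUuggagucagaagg
miR-378*: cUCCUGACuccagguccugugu
miR-652: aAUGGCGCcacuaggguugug
miR-338: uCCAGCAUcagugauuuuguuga
miR-451: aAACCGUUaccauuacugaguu

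The next set shows miRNAs with the seed AGCAGCA, whose members stood on both sides of normal liver.
miR-15b: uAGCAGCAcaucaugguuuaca
miR-16: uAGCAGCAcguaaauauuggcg
miR-195: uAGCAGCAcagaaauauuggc
miR-497: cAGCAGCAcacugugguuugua
The last set shows the miRNAs that differed between 2/3 PH and 1/3 PH at 24 hours, which have the seed AAAGUGC or, for miR-18a, AAGGUGC.
miR-17-5p: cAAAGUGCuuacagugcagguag
miR-20b-5p: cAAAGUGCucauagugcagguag
miR-93: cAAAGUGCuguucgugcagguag
miR-18a: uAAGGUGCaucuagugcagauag

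miR-34a was the only miRNA that passed the test at 24 hours after 1/3 PH. miR-34a is a target of p53 and is known to restrain the cell cycle. Its scaled signal was 49.85, 53.7 and 52.7 units on the normal arrays and 107, 110 and 84.8 units on the operated arrays. Every operated liver was above every normal liver, and the 3 normal livers lay close together. The level rose 1.92-fold (95% CI 1.40 to 2.62; log2 difference 0.94, SE 0.22; adjusted p = 0.0469, limma over 144 miRNAs). This was 1 call among the 144 miRNAs fitted, or 0.694%. Within the first scan day the ratio was 2.17-fold and within the third 1.58-fold. The call was lost with the slide as a random block (log2 difference 0.87, adjusted p = 0.0922), with the slide as a fixed block (0.77, adjusted p = 0.421), with the scan day as a block (0.85, adjusted p = 0.0508), and with 5 of the 6 arrays left out in turn (adjusted p from 0.0836 to 0.164). It was kept without operated array 3 (adjusted p = 0.046), and in 3 of 14 other ways of processing, and all 14 left miR-34a higher after 1/3 PH. With 1 of all 26 arrays left out in turn, those of other hours included, no miRNA passed in 18 of 26 cases. In the genome miR-34a lies at chr5:165815971-165815992 on the plus strand, outside the span of any protein-coding gene.

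**Figure D1:**
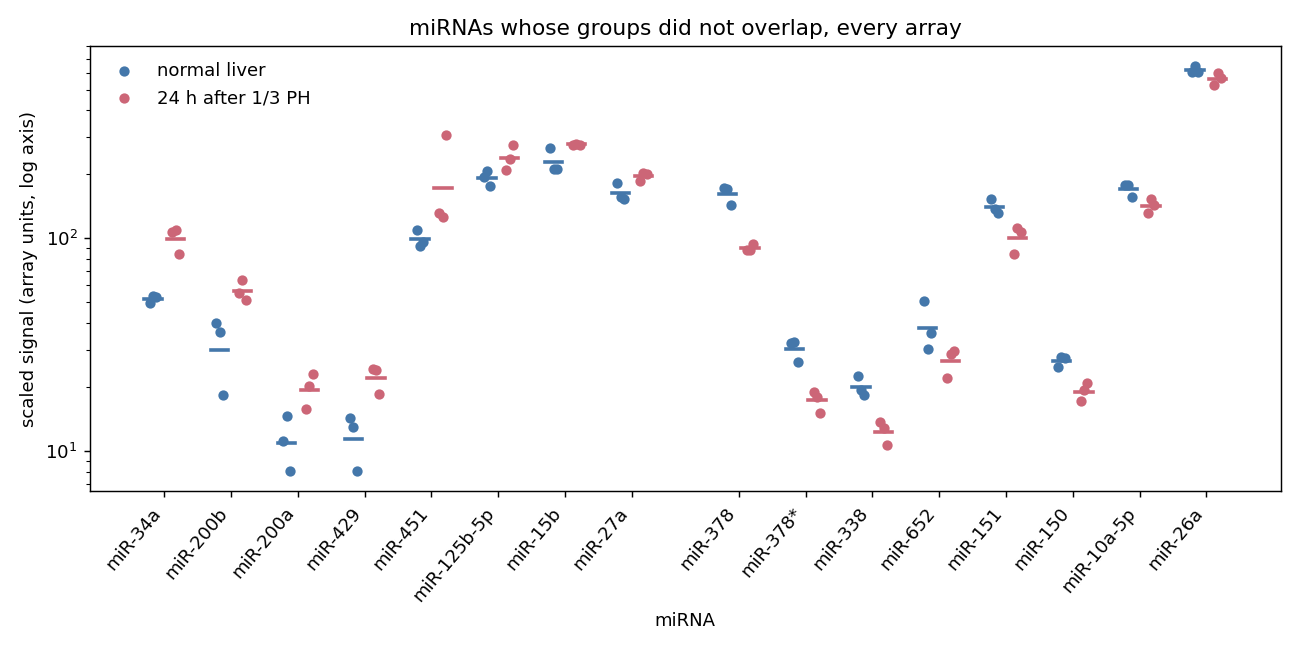
Scaled signal (array units, log axis) of 16 miRNAs on each of the 3 normal arrays (blue) and the 3 arrays of 1/3 PH 24 h (red), with horizontal lines at the geometric means. The 8 miRNAs on the left were higher and the 8 on the right lower on all operated arrays, and miR-451 had 1 array far above the others.

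Most miRNAs differed little from normal liver. By the limits of 0.8-fold and 1.2-fold for an altered miRNA, 18 of the 129 were raised (14%), 12 were lowered (9.3%) and 99 lay between. The altered share was 23.3%, and 60% of the altered miRNAs were on the raised side. That majority turned with the processing, with 15 raised and 25 lowered by the software's gene signal, 23 and 26 by the deposited log2 values, and 24 and 34 within the third scan day. Only 3 miRNAs were past 2-fold. A single operated array set against the mean of the normal arrays had 41.1, 32.6 and 43.4% of the miRNAs outside the limits, or 39.02% ± 5.71 (SD, n = 3). A single normal array set against the mean of the other normal arrays had 43.4, 40.3 and 27.1% outside them, a range that overlaps that of the operated arrays. That mean rests on fewer arrays, so the shares were not measured alike. The normal arrays also differed in slide and scan day, so their spread is not one of livers alone. The altered share grew to 36.7% without normal array 1 and to 35.3% without operated array 3. It was 40.3% within the first scan day and 44.96% within the third, where 1 operated array met 1 normal array. The median 95% interval of a miRNA reached 1.36-fold either way (limma), and single miRNAs had narrower or wider intervals.

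Strong signals stayed close to normal liver. All 9 miRNAs above 1000 units in normal liver stayed between 0.858-fold and 1.06-fold. Among the 48 above 100 units 6 were altered, and among the 81 others 24 were. miR-122 measured 40470, 33390 and 38650 units in normal liver and 40680, 39490 and 31550 units after 1/3 PH, with fully overlapping groups (0.99-fold, 95% CI 0.835 to 1.17). miR-21, which is widely raised in injured and growing tissue, was between 4439 and 6645 units in normal liver and between 5288 and 6157 units after 1/3 PH (1.06-fold, 95% CI 0.809 to 1.39). let-7a stood at 0.995-fold (95% CI 0.874 to 1.13), let-7f at 0.934-fold and miR-192, another hepatocyte miRNA, at 0.955-fold. miR-22 had the lowest ratio of this class, 0.858-fold (95% CI 0.707 to 1.04), and its groups overlapped.

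**Figure D2:**
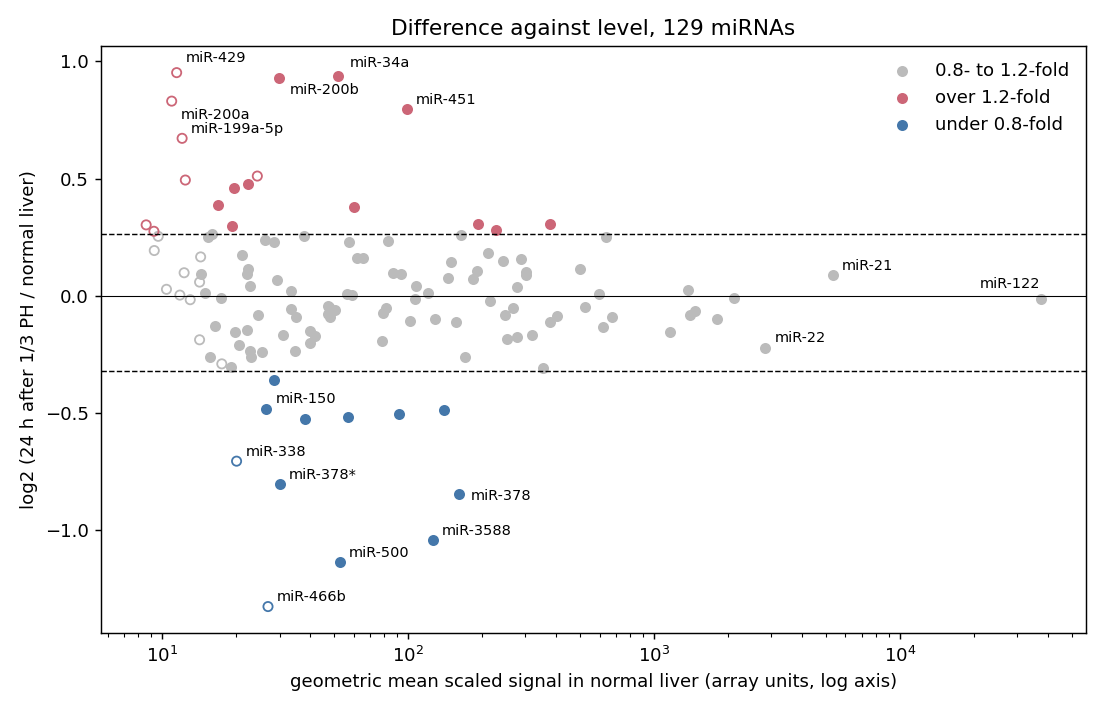
The log2 ratio of 1/3 PH 24 h to normal liver against the geometric mean signal in normal liver (log axis) for 129 miRNAs, with dashed lines at 1.2-fold and 0.8-fold and open circles for miRNAs at an array's floor on at least 1 of the 6 arrays. Of the 30 altered miRNAs 24 lie below 100 units, and the 9 miRNAs above 1000 units lie between the dashed lines.

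At least 1 of the 6 values was at the floor for 9 of the 30 altered miRNAs, 7 of them on the raised side. miR-455* was one of these. It was at the floor on all 3 operated arrays, and its 1.23-fold ratio came from the higher floors of operated arrays 1 and 2. With a floor of 1 unit its log2 difference was -0.75, the opposite direction. Among the 110 miRNAs above the floor on all 6 arrays, 19.1% were altered, 11 raised and 10 lowered.

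All 3 arrays of one group stood above all 3 of the other for 19 miRNAs, 8 of them higher after 1/3 PH (6.2% of the miRNAs) and 11 lower (8.53%). At an unadjusted limma p under 0.05 there were 6 higher miRNAs (4.17% of the 144 fitted) and 10 lower ones (6.94%). Apart from miR-34a none passed after adjustment, where the next adjusted p was 0.119 (limma). The miRNAs described from here on against normal liver are therefore given by their values.

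miR-200b, miR-200a and miR-429 belong to the miR-200 family, which marks epithelial cells such as bile duct cells and restrains the loss of epithelial character. Their genes lie together within 1908 bases on chromosome 5 of GRCr8, in the span of Ttll10. miR-200b measured 39.8, 36.1 and 18.3 units in normal liver and 55.4, 63.8 and 51.3 units after 1/3 PH (1.90-fold, 95% CI 1.26 to 2.88; adjusted p = 0.119, limma). The operated livers were all higher, and normal array 3 was the lowest of the 6; without it the log2 difference was 0.58 in place of 0.93. miR-200a measured 11.1, 14.6 and 8.03 units against 15.8, 20.2 and 23.1 units, with normal arrays 1 and 3 at their floors (1.78-fold). miR-429 measured 14.3, 13.0 and 8.03 units against 24.2, 24.1 and 18.6 units, and it was not detected on normal array 3 (1.93-fold). On each scan day the 3 ratios lay above 1, from 1.49-fold to 1.68-fold on the first and from 1.42-fold to 1.58-fold on the third.

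Of the 5 biliary and epithelial miRNAs measured, these 3, whose genes are neighbours, were over 1.2-fold and none was under 0.8-fold. Over all 129 miRNAs 14% were over 1.2-fold and 9.3% under 0.8-fold. The median log2 difference of the 5 was 0.83 against -0.0076 over all 129. The other two, miR-31 at 1.12-fold and miR-96 at 1.04-fold, lay within the limits. miR-200c and miR-141, the other members of the family, were not detected on any of the 6 arrays. The summed signal of the list was 108 to 144 units in normal liver and 165 to 195 units after 1/3 PH. In whole tissue, more cells of a type and more of its RNA per cell cannot be told apart.

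miR-378 and miR-378* are the 3p and 5p arms of a single hairpin on chromosome 18, at chr18:57128925-57128945 and chr18:57128962-57128983 on the minus strand. The hairpin lies within the span of Ppargc1b, which codes for a coactivator of mitochondrial metabolism. miR-378 measured 172, 171 and 144 units in normal liver and 88.2, 87.9 and 93.8 units after 1/3 PH (0.556-fold, 95% CI 0.392 to 0.79; adjusted p = 0.119, limma). The groups were well apart, and the operated livers lay close together. miR-378* measured 32.2, 32.5 and 26.1 units against 19.0, 18.0 and 15.1 units (0.573-fold, 95% CI 0.407 to 0.807; adjusted p = 0.119, limma). Thus both arms stood at nearly the same share of their normal level. The ratio of miR-378 was 0.511 on the first scan day and 0.549 on the third, and that of miR-378* was 0.574 and 0.463. In a fit of the 6 arrays of these groups alone miR-378 passed the test (adjusted p = 0.0252, limma).

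miR-652 and miR-652* share a hairpin on chromosome X, within the span of Tmem164. miR-652 measured 50.7, 30.3 and 35.8 units in normal liver and 21.98, 28.7 and 29.4 units after 1/3 PH (0.695-fold, 95% CI 0.502 to 0.963). The groups did not overlap, but normal array 2 exceeded the highest operated array by a small margin, and on that scan day the ratio was 0.969. miR-652* stood at 0.705-fold (95% CI 0.509 to 0.977) with overlapping groups. Both arms were members for 11 miRNAs in all. The arms of miR-122 stood at 0.99-fold and 0.965-fold, whereas miR-150 stood at 0.717-fold and its star arm at 0.939-fold.

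The other miRNAs that were lower on every operated array had small to moderate differences. miR-150, a miRNA of mature lymphocytes, measured 24.9, 27.6 and 27.2 units in normal liver and 17.1, 19.3 and 20.9 units after 1/3 PH (0.717-fold, 95% CI 0.571 to 0.899; adjusted p = 0.148, limma). miR-151 measured 153, 138 and 132 units against 84.4, 111 and 108 units (0.715-fold). miR-338 measured 22.5, 19.5 and 18.4 units against 13.6, 12.8 and 10.69 units (0.614-fold), and the first pair of operated values were at the floor, with a detection call on 1 operated array only. It lies within the span of Aatk on chromosome 10. miR-10a-5p, which is encoded in the Hoxb gene cluster, measured 179, 178 and 157 units against 132, 153 and 143 units (0.834-fold, 95% CI 0.721 to 0.964). miR-26a (0.912-fold), let-7f (0.934-fold), miR-494 (0.902-fold) and miR-347 (0.818-fold) were also lower on every operated array, by less than the limit for an altered miRNA.

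The largest differences on the lower side belonged to miRNAs with a wide spread in normal liver. miR-466b measured 79.5, 12.9 and 19.0 units in normal liver and 13.6, 13.3 and 6.85 units after 1/3 PH (0.399-fold, 95% CI 0.169 to 0.945), with operated arrays 1 and 3 at their floors. miR-500 measured 116, 30.5 and 41.6 units against 23.1, 30.8 and 19.6 units (0.456-fold, 95% CI 0.235 to 0.882). miR-3588 measured 279, 64.3 and 112 units against 78.0, 103 and 28.6 units (0.485-fold, 95% CI 0.179 to 1.32). Normal array 1 was the highest of the 6 arrays for each of them, and the other normal arrays overlapped with the operated arrays or nearly so. With the scan day as a block miR-500 and miR-3588 were the only calls (limma). These 3 miRNAs were named after their values had been seen.

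On the higher side, miR-451, a miRNA of red cells, measured 110, 91.6 and 96.4 units in normal liver and 131, 126 and 307 units after 1/3 PH (1.73-fold, 95% CI 0.975 to 3.09). Operated array 3 was far above the other arrays, and the ratio was 1.17-fold on the first scan day and 3.35-fold on the third. The red cell miRNAs miR-144 and miR-144* were detected on 1 operated array each and on no normal array. miR-15b measured 265, 211 and 211 units against 275, 279 and 276 units (1.21-fold, 95% CI 0.991 to 1.49). miR-27a measured 182, 157 and 153 units against 185, 202 and 201 units (1.198-fold). For both, normal array 1 lay just under the operated arrays.

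Of the 8 miRNAs of the stellate and mesenchymal list, 6 were over 1.2-fold and none under 0.8-fold. The median log2 difference was 0.343 against -0.0076 over all 129, of which 14% were over 1.2-fold. Among them miR-143, miR-199a and miR-214 were taken as markers of the collagen-making cells of the liver. The list also holds miR-10a-5p and miR-125b-5p, miR-99a and miR-100, and the last 3 were among the raised members, so the count is not one of markers alone. The list leaned on operated array 3. Within the first scan day, without that array, 3 of the 8 were over 1.2-fold, 1 was under 0.8-fold and the median was 0.096, and within the third day 6 were over 1.2-fold with a median of 0.516. Of all 129 miRNAs, 30 were over and 22 under these limits within the first day, with a median of -0.0085. Within the third day 24 were over and 34 under, with a median of -0.133. At an unadjusted limma p under 0.05, 2 of the 8 were higher, against 4.17% of all miRNAs fitted, and 1, miR-10a-5p, lower, against 6.94%. The 2 higher ones were miR-199a-5p and miR-100, and both had operated array 1 at its floor. With a floor of 1 unit their log2 differences were 0.59 and 0.37 in place of 0.67 and 0.49. Both were also among the 3 raised members of the first scan day. miR-199a-5p measured 11.1, 16.04 and 9.79 units in normal liver and 13.6, 18.4 and 28.1 units after 1/3 PH (1.59-fold, 95% CI 1.04 to 2.44). miR-214, whose gene lies within the span of Dnm3, measured 26.5, 21.8 and 19.0 units against 21.0, 32.9 and 42.9 units (1.39-fold, 95% CI 0.964 to 2.01). In both, and in miR-199a-3p at 1.30-fold, operated array 3 was the highest array and the groups overlapped. On the first scan day miR-214 stood at 0.991-fold. miR-125b-5p was the member of the list whose groups did not overlap upward, at 194, 208 and 177 units against 209, 236 and 275 units (1.24-fold). miR-99a stood at 1.23-fold and miR-100 at 1.41-fold. The summed signal of the list was 1007 to 1161 units in normal liver and 1151 to 1299 units after 1/3 PH, and miR-145 was not detected on any of the 6 arrays.

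Among 8 leukocyte miRNAs, miR-150 and miR-142-3p (0.699-fold) were under 0.8-fold and none was over 1.2-fold, with a median log2 difference of -0.149. Over all 129 miRNAs 9.3% were under 0.8-fold and 14% over 1.2-fold, and the median was -0.0076. Within the first scan day 5 of the 8 were under and 1 was over these limits, and within the third 4 and 2. Of all 129 miRNAs, 22 were under and 30 over within the first scan day, and 34 and 24 within the third. The medians over all 129 within these days were -0.0085 and -0.133. The summed signal was 384 to 418 units in normal liver and 346 to 377 units after 1/3 PH, without overlap. miR-223, of granulocytes, stood at 1.12-fold. The endothelial miR-126 stood at 1.01-fold. None of the 8 hepatocyte miRNAs was altered, with a median of -0.055. That median was 0.111 within the first scan day and -0.205 within the third. Whether the share of these cell types moved with the miRNAs above was not tested.

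**Figure D3:**
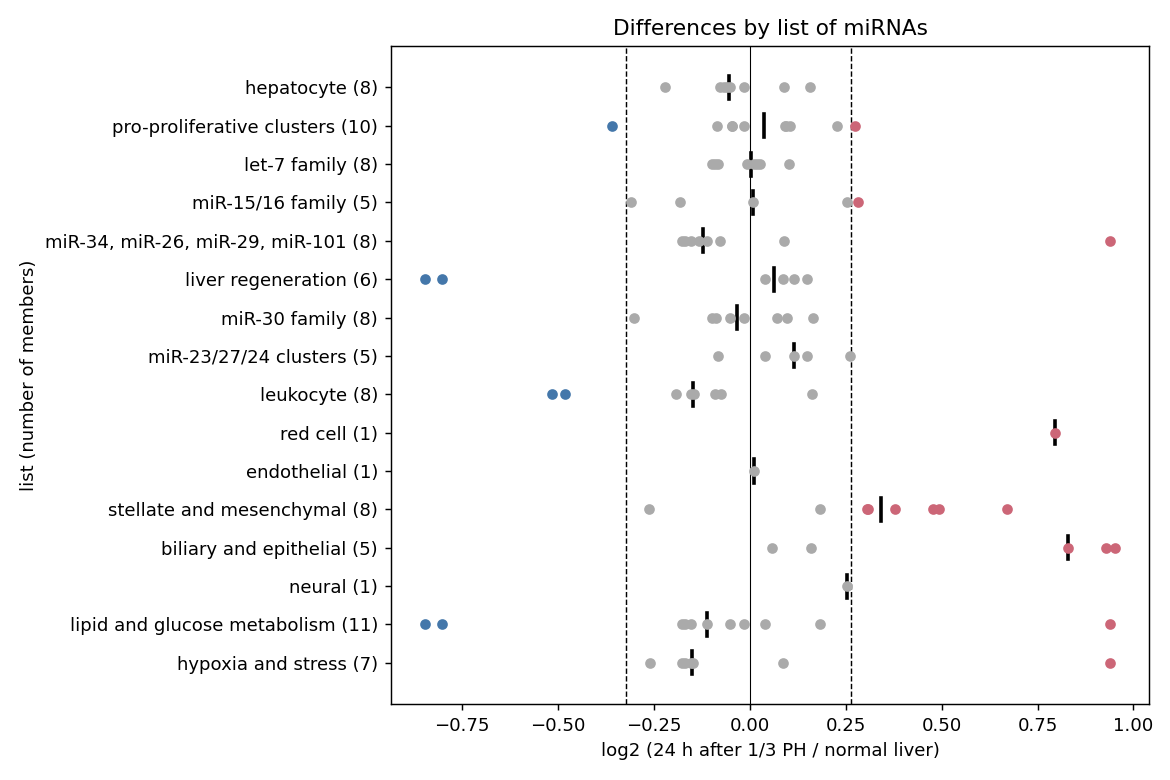
The log2 ratio of 1/3 PH 24 h to normal liver for each miRNA of 16 lists, with black bars at the list medians, dashed lines at 0.8-fold and 1.2-fold, and the number of members in brackets. The biliary and epithelial list and the stellate and mesenchymal list have most of their members above 1.2-fold, and the let-7, miR-30 and hepatocyte lists lie between the dashed lines.

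Among the families that bear on growth, the let-7 family had no altered member at this hour. All 8 let-7 family members, which hold back growth genes and share the seed GAGGUAG, lay between 0.934-fold and 1.07-fold (median log2 difference 0.002). Of 10 miRNAs of the pro-proliferative clusters, miR-18a was over 1.2-fold and miR-19a under 0.8-fold, with a median of 0.038. The shares over all 129 miRNAs were 14% over 1.2-fold and 9.3% under 0.8-fold. The median of the 10 differed in sign between the scan days, at 0.246 within the first and -0.218 within the third. miR-18a was at the floor on 3 of the 6 arrays. miR-19a measured 13.9, 41.5 and 39.4 units in normal liver and 21.9, 25.2 and 19.5 units after 1/3 PH, with normal array 1 on the far side (0.779-fold). miR-106b measured 55.7, 57.5 and 59.9 units against 72.2, 74.1 and 57.6 units (1.17-fold, 95% CI 0.943 to 1.45), so operated array 3 fell among the normal livers.

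In the list of growth-restraining miR-34, miR-26, miR-29 and miR-101 families, miR-34a was the 1 of 8 members that passed the test, and the median was -0.122. That median differed in sign between the scan days, at 0.233 within the first and -0.271 within the third. The 3 miR-29 members, which target collagen transcripts and share the seed AGCACCA, lay between 0.885-fold and 0.9-fold. Within the first scan day miR-29b was over 1.2-fold, and within the third miR-29b and miR-29c were under 0.8-fold. Of the 6 miRNAs listed for liver regeneration, the miR-378 arms were under 0.8-fold and the rest, miR-21, miR-23b, miR-24 and miR-27b, lay within the limits (median 0.063). The median of this list was -0.107 within the first scan day and -0.046 within the third. For this list and those that follow, the shares over all 129 miRNAs were 14% over 1.2-fold and 9.3% under 0.8-fold. No member of the miR-30 family (8 members, median -0.033) or of the miR-23/27/24 clusters (5 members, median 0.115) was altered. The metabolic list had 1 member over 1.2-fold, miR-34a, and 2 under 0.8-fold, the miR-378 arms, of 11 (median -0.112). miR-34a and the miR-378 arms are counted in more than 1 of these lists. The hypoxia and stress list had miR-34a over 1.2-fold and none under 0.8-fold of 7 (median -0.152), and miR-210, the best known hypoxia miRNA, stood at 0.835-fold. The median of this list was 0.112 within the first scan day and -0.277 within the third. The neural list had a single member, miR-128, which was at the floor on 1 normal and 2 operated arrays. Its log2 difference was 0.25, and with a floor of 1 unit it was -0.64, the opposite direction. The muscle list had no member.

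The 5 miRNAs with the seed AGCAGCA did not stand together. These miRNAs restrain cyclins and BCL2. miR-15b and miR-16, which lie next to each other within the span of Smc4 on chromosome 2, stood at 1.21-fold and 1.19-fold. miR-195 and miR-497, which are neighbours on chromosome 10, stood at 0.807-fold and 0.881-fold, and miR-322 stood at 1.01-fold. miR-16 measured 823, 509 and 620 units in normal liver and 853, 817 and 630 units after 1/3 PH, and miR-195 measured 423, 268 and 391 units against 299, 323 and 242 units. In both the groups overlapped. On the first scan day the ratio was 1.05 for miR-15b and 0.734 for miR-195. On the third it was 1.31 and 0.903.

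The level at 24 hours was next set against 2/3 PH at the same hour, which asks where the smaller resection differed from the larger one. Of the 144 miRNAs fitted 4 passed the test (2.78%), and all 4 were higher after 2/3 PH. They were miR-93, miR-17-5p, miR-20b-5p and miR-18a, of clusters known to drive cells into the cycle. miR-93, miR-17-5p and miR-20b-5p share the seed AAAGUGC, and the genes looked up for them lie on chromosomes 12, 15 and X. The mature sequence of miR-17-5p has 2 loci in the reference, of which Mir17 on chromosome 15 was taken. The gene of miR-93 is within the span of Mcm7, which codes for a part of the replication helicase.

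miR-93 measured 26.6, 23.01 and 21.4 units after 1/3 PH and 50.4, 43.0 and 36.9 units after 2/3 PH, with all arrays of 2/3 PH above all of 1/3 PH (1.83-fold, adjusted p = 0.000248, limma). miR-17-5p measured 13.6, 13.2 and 11.7 units against 36.4, 23.3 and 24.7 units (2.15-fold, adjusted p = 0.0217, limma), with 1/3 PH array 1 at its floor. miR-20b-5p measured 50.1, 47.7 and 40.7 units against 92.04, 78.7 and 72.2 units (1.75-fold, adjusted p = 0.0271, limma). miR-18a measured 14.2, 12.8 and 7.72 units against 30.5, 27.5 and 24.5 units (2.45-fold, adjusted p = 0.0345, limma), with 1/3 PH array 2 at its floor. In each of the 4 the groups were clearly apart. All 3 arrays of 2/3 PH 24 h were scanned on the first day, on a slide shared with the 3 arrays of 1/3 PH 36 h. That slide held no array of 1/3 PH 24 h. The 1/3 PH 36 h arrays on it measured 20.5 to 24.9 units for miR-93 and 38.4 to 48.0 units for miR-20b-5p. For miR-17-5p and miR-18a they measured 12.1 to 16.75 and 12.1 to 16.1 units, with arrays 2 and 3 at their floors. Against the 2 arrays of 1/3 PH 24 h of the first day the ratios were 1.74, 2.05, 1.65 and 2.03 for miR-93, miR-17-5p, miR-20b-5p and miR-18a. With the scan day as a block or the slide as a random block, miR-93 was the only call. A fixed slide block could not be fitted here, and in a fit of these 6 arrays alone no miRNA passed, though 12 had an unadjusted limma p under 0.05. With 1/3 PH 24 h array 2 or 3 or with 2/3 PH 24 h array 1 left out, miR-93 was again the only call, and without 2/3 PH 24 h array 2 the calls were miR-17-5p and miR-93. Without 1/3 PH 12 h array 2 or 2/3 PH 12 h array 1, 9 and 7 miRNAs passed, of 144 and 149 fitted. These arrays enter through the pooled spread and the choice of fitted miRNAs, and the scaling was not redone without them.

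None of the same miRNAs passed against normal liver after 1/3 PH, a comparison that shares the 1/3 PH 24 h arrays. miR-93 stood at 1.07-fold of normal liver (95% CI 0.885 to 1.29), miR-17-5p at 0.989-fold (0.687 to 1.42) and miR-20b-5p at 0.968-fold (0.728 to 1.29). miR-18a stood at 1.21-fold (0.748 to 1.96), just over the limit of 1.2-fold for an altered miRNA. The intervals of miR-17-5p and miR-18a were wide. Other members of these clusters were higher after 2/3 PH than after 1/3 PH without passing, as miR-20a (1.82-fold, adjusted p = 0.0781, limma), miR-92a (1.40-fold, adjusted p = 0.0781, limma), miR-25 (1.31-fold) and miR-106b (1.26-fold). miR-34a, miR-200b and miR-378 did not pass between the operations, with ratios of 1.23, 0.958 and 1.08 for 2/3 PH over 1/3 PH.

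**Figure D4:**
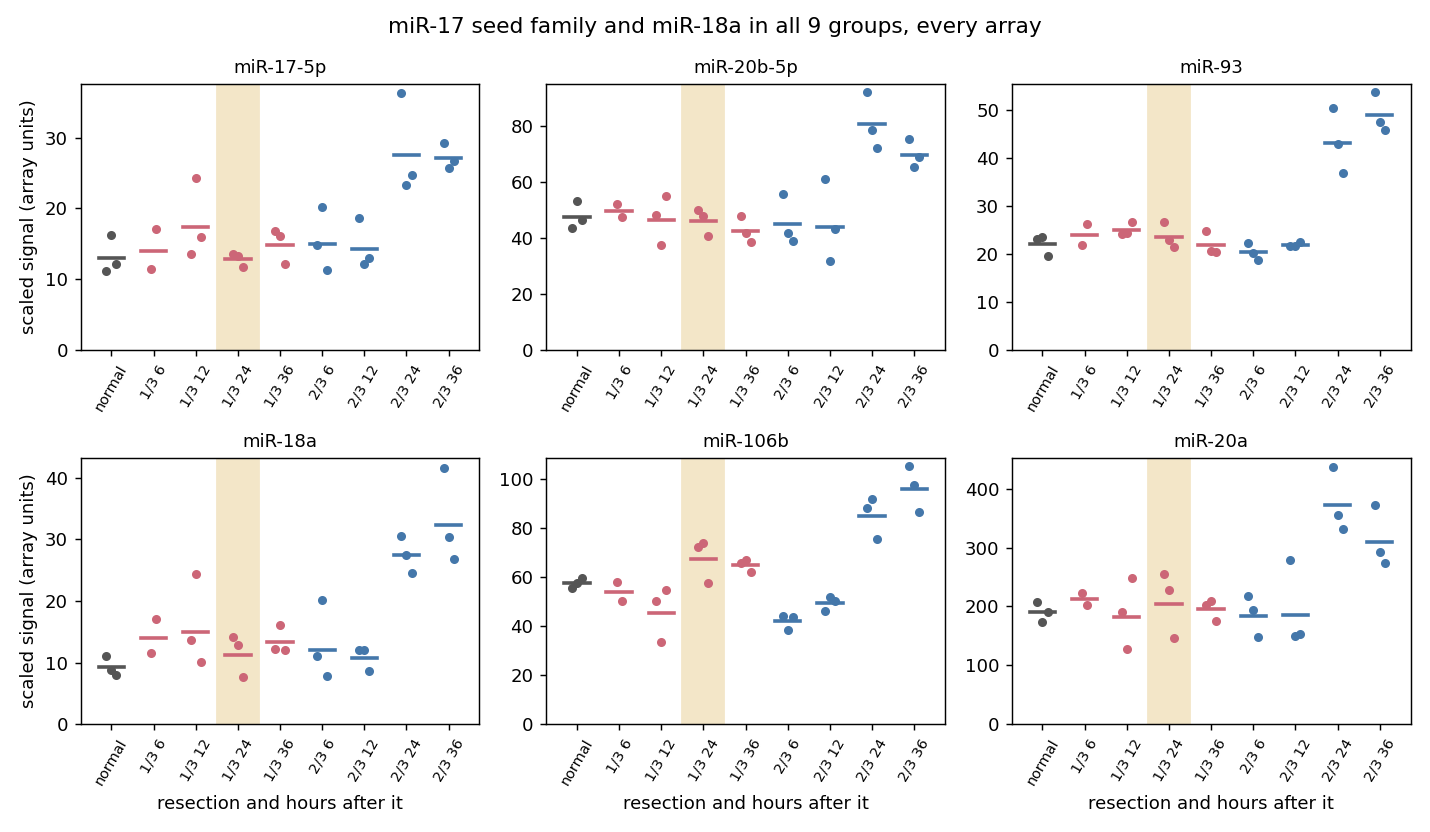
Scaled signal (array units) of 6 miRNAs on every array in normal liver (grey), after 1/3 PH (red) and after 2/3 PH (blue) at 6, 12, 24 and 36 hours, with lines at geometric means and 1/3 PH 24 h shaded. The first 4 panels are the miRNAs that passed the test between the operations at 24 hours, and in them all arrays of 2/3 PH 24 h lie above normal liver. The arrays of 1/3 PH 24 h overlap with normal liver in each, though for miR-18a 2 of the 3 lie above all normal arrays, 1 of these at its floor.

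Against 1/3 PH at 12 hours, 5 of the 144 miRNAs (3.47%) passed the test. Higher at 24 hours were miR-29b (1.74-fold, adjusted p = 0.0485, limma), miR-29c (1.82-fold), miR-106b (1.49-fold) and miR-192 (1.27-fold). miR-29b measured 121 to 160 units at 12 hours, 228 to 268 units at 24 hours and 196 to 377 units in normal liver, so the level at 24 hours was back within the range of the normal livers. miR-192 measured 1048 to 1151 units at 12 hours, 1329 to 1450 units at 24 hours and 1350 to 1618 units in normal liver. miR-466b was lower at 24 hours, at 6.85 to 13.6 units against 35.6 to 107 units at 12 hours (0.153-fold, adjusted p = 0.0296, limma). Arrays 1 and 3 of 24 hours were at their floors, which set the size of this ratio. On both scan days the ratios of these 5 miRNAs kept their direction, with 1.67 and 1.89 for miR-29b and 0.236 and 0.0638 for miR-466b. All 5 calls were lost with the slide as a fixed block, where 28 miRNAs had an unadjusted limma p under 0.05, and in a fit of these arrays alone, where 9 did. With the slide as a random block all 5 passed. Array 2 of 1/3 PH 12 h, which had the fewest detected miRNAs, bears on this comparison: without it no miRNA passed, and 19 had an unadjusted limma p under 0.05. The ratios of the first scan day, which do not use that array, were 1.67 for miR-29b, 1.59 for miR-29c, 1.39 for miR-106b, 1.26 for miR-192 and 0.236 for miR-466b. No miRNA passed without operated array 1 or 2 at 24 hours either, where 20 and 23 had such a p, and with most other single arrays left out miR-466b was the only call. Without 1/3 PH 12 h array 3 there were 11 calls.

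Some of the miRNAs named above are followed here over the hours, though only miR-34a among them passed against normal liver. Their values ran differently, and differences between their courses were not tested. miR-34a had geometric means of 65.8, 80.4, 99.8 and 84.7 units over the successive hours of 1/3 PH (6, 12, 24, 36), against 52.1 units in normal liver. Neighbouring hours overlapped. After 2/3 PH it measured 56.0, 71.9, 123 and 188 units. miR-378 had means of 166, 86.5, 89.9 and 113 units after 1/3 PH against 162 units in normal liver, so the 6 h livers were at the level of normal liver and the 12 h and 24 h livers were all below it. miR-200b had means of 29.9, 75.8, 56.6 and 40.3 units against 29.7 units in normal liver, with the highest values at 12 hours. miR-150 had means of 19.0, 21.9, 19.0 and 18.8 units against 26.5 units, and all 1/3 PH livers were below all normal livers, with no detection call for 1 value at 12 hours. miR-451 had its highest mean at 24 hours, 172 units, which rested on operated array 3.

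**Figure D5:**
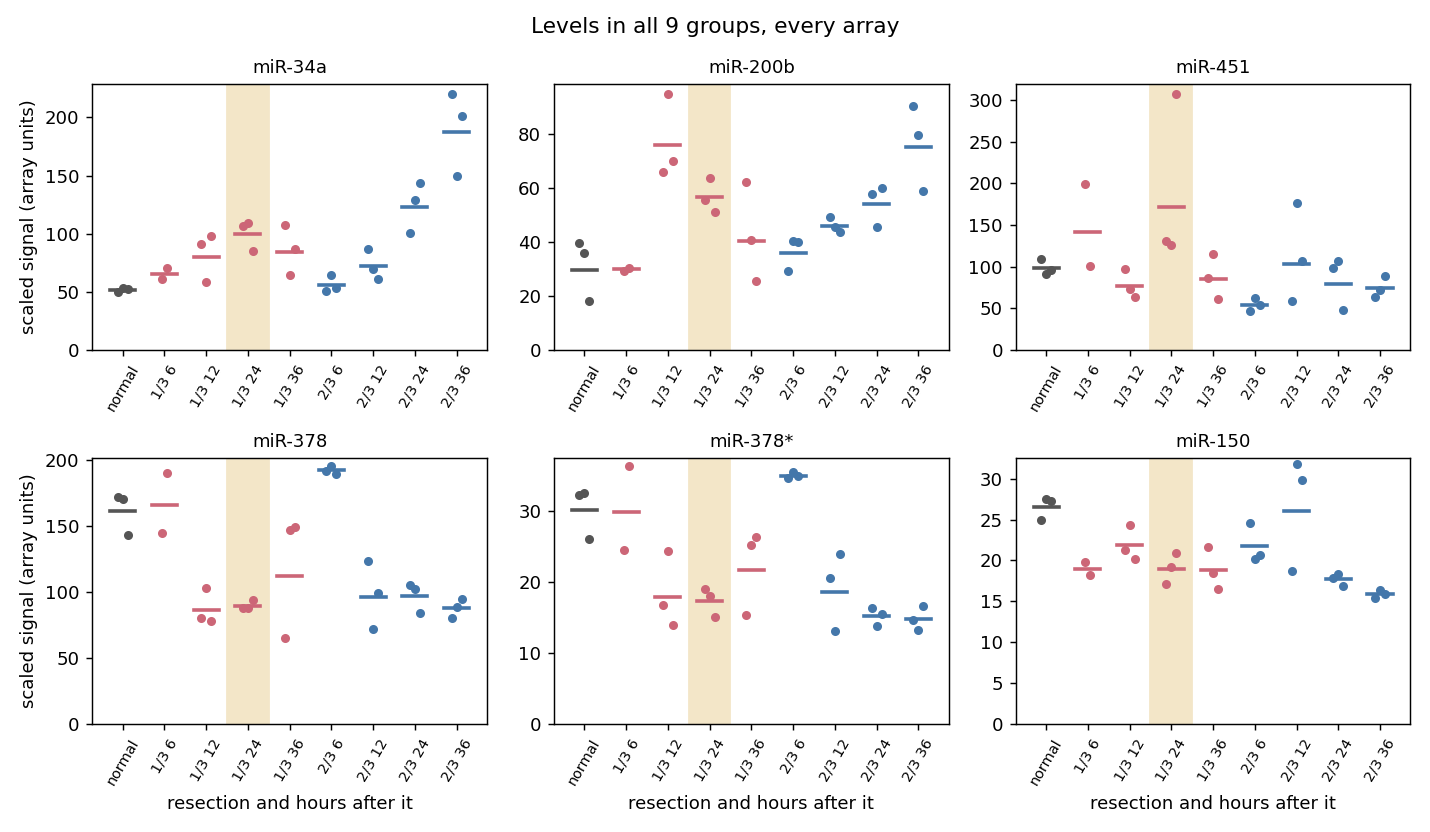
Scaled signal (array units) of 6 miRNAs on every array in normal liver (grey), after 1/3 PH (red) and after 2/3 PH (blue) at 6, 12, 24 and 36 hours, with lines at geometric means and 1/3 PH 24 h shaded. miR-34a lies above normal liver at 24 hours, miR-378 and miR-378* lie below it at 12 and 24 hours after 1/3 PH, and 1 array of miR-451 stands far above the rest.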

How the data were processed

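Liver RNA of 26 rats was hybridized to 1-colour Agilent rat miRNA arrays (1644 probes for 677 miRNAs). The authors deposited the scanner output of Feature Extraction 10.7.3.1 with background-corrected intensity values for each spot, not normalized between arrays, with software flags coded as other values, and a table of log2 values normalized between arrays by a method not given in the sources used here. 

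From the processed signals, spots flagged as outliers were left out, spots of a probe were averaged and probes of a miRNA were summed. Arrays were brought to a common scale by the 75th percentile of 109 probes that stood well above background on every array, and values were raised to the array's floor. Arrays have no read depth, so their number limits the precision. limma 3.58.1 in R 4.3.3 fitted 9 groups to log2 values of 144 miRNAs (all arrays of 1 or more groups with a detection call) (17 residual degrees of freedom), with Benjamini-Hochberg adjustment over all of them and two-sided p-values, and the code was tested on simulated data. The p-values weigh a difference against the spread between arrays within groups, pooled over the 9 groups. Each array is 1 rat, and within some groups slides and scan days differ too, so this spread holds both. The labels number the normal arrays alone, so arrays were not paired.

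Named miRNAs were those that passed, up to 10 higher and 10 lower ones with groups that did not overlap, the 6 with the highest signal and members of lists (cell types, growth, metabolism, stress). Members and lists were chosen with earlier results of these data known. Array names without an arm were assigned the arm of the current name. Alternatives covered scaling, background, filter, floor, slide, scan day, the fit and each array left out. Within-day values, those of the lists included, and the count without floor values were added after seeing the data.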

Additional observations from a re-analysis of the deposited data

Results flagged for a closer look

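These results were singled out because the level at 24 hours after 1/3 PH differed, by a direct limma test, from the level after another operation or at another hour. Between 2/3 PH and 1/3 PH at 24 hours, the log2 differences were 0.87 for miR-93, 1.10 for miR-17-5p, 0.81 for miR-20b-5p and 1.29 for miR-18a, higher after 2/3 PH on 3 of 3 arrays in each case. Between 24 and 12 hours after 1/3 PH, they were 0.58 for miR-106b, 0.34 for miR-192, 0.80 for miR-29b and 0.86 for miR-29c, higher at 24 hours, and -2.71 for miR-466b. In the comparison of hours no miRNA passed without array 2 of 1/3 PH 12 h, nor without array 1 or array 2 of 1/3 PH 24 h, where 19, 20 and 23 had an unadjusted limma p under 0.05. Within the first scan day, which does not hold array 2 of 1/3 PH 12 h, the ratios were 1.67 for miR-29b, 1.26 for miR-192 and 0.236 for miR-466b. Groups of 3 arrays are too small for a test of single outlying arrays.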

How the results depend on the processing

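With 1 array of any group left out in turn, the count of miRNAs that passed against normal liver ran from 0 to 2 and was 0 in 18 of 26 cases, that between 2/3 PH and 1/3 PH ran from 1 to 9, and that between 24 and 12 hours from 0 to 11. With 1 of the 6 arrays left out, the altered share ran from 25.19 to 36.69%, the raised share from 45.71 to 73.47% and the miRNAs without overlap from 25 to 48, which fewer arrays allow more easily. The counts that passed against normal liver, between operations and between hours, 1, 4 and 5 as reported, became 0, 0 and 0 without scaling and with normexp, 0, 0 and 9 with the percentile over all probes, and 0, 6 and 1 with quantile normalization. They became 0, 1 and 4 with the software's gene signal, 0, 0 and 1 with the deposited log2 values, 0, 3 and 1 over miRNAs detected on at least 1 array, 1, 1 and 6 over those detected on every array, and 0, 2 and 4 with a floor of 1 unit. They were 0, 1 and 5 with the slide as a random block, 2, 1 and 9 with the scan day as a block, 2, 0 and 0 with the arrays compared alone, and 1, 4 and 6 with a trended prior. With the slide as a fixed block they were 0 against normal liver and 0 between hours, and that between operations could not be fitted. Unadjusted limma p-values under 0.05 against normal liver numbered 16 as reported, 0 with normexp and 10 with the deposited values. The altered share moved from 23.3% to 3.101% with normexp, which adds an offset of 50 that shrinks dim ratios, to 31.01% with the software's gene signal, 37.98% with the deposited values, 29.55% over miRNAs detected on at least 1 array, and 40.31 and 44.96% within the first and the third scan day. The raised share moved from 60% to 37.5% with the software's gene signal and 41.38% within the third scan day. It was 46.94% with the deposited values, 50% with normexp, 51.52% with a floor of 1 unit and 75% over miRNAs detected on at least 1 array. The miRNAs without overlap, 19 as reported, were 4 with the percentile over all probes and 7 with normexp. miR-34a was higher than in normal liver under all 14 other settings, with log2 differences from 0.37 to 0.95, and passed in 3. Of the 17 miRNAs tested in this way, miR-494 alone turned its direction, to 0.0325 with the deposited values, and let-7f came to 0 with those and with quantile normalization. Where no cause is named, the cause was not tested. Signal over background limits the ratios of miRNAs near the floor. No paired analysis was possible because the labels number only the normal arrays.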

Other observations

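Of the 129 miRNAs, 42 had the lowest of their 6 values on operated array 3 and 34 had their highest on normal array 1, whereas 5 had their lowest on operated array 2. The miRNAs highest on operated array 3 include miR-451, miR-199a-5p, miR-199a-3p, miR-214 and miR-143 (285 units against 193 to 252 units in normal liver). miR-139-3p, which was named after its values were seen, spread most widely among the altered miRNAs, at 48.9, 19.1 and 15.5 units in normal liver and 37.3, 12.8 and 87.7 units after 1/3 PH, and its 1.43-fold ratio has an SE of 0.98 on the log2 scale. The 11 star arms among the 129 miRNAs had a median log2 difference of -0.187, with 1 over 1.2-fold and 2 under 0.8-fold. The 1 over 1.2-fold was miR-455*, which was at the floor on all 3 operated arrays and turned its direction with a floor of 1 unit. Among all 129, 14% were over 1.2-fold and 9.3% under 0.8-fold.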
